A study of Mus musculus with 15 samples.

Results

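The 9 genes described here encode the R-spondins (Rspo1, Rspo2, Rspo3 and Rspo4), their receptors (Lgr4, Lgr5 and Lgr6) and the membrane ubiquitin ligases that the receptors act on (Znrf3 and Rnf43). They were taken by name from a table of RNA-seq counts for 54232 genes, and all 9 were present and passed the filter on low counts. The samples were dissected secondary palates of wild-type mice (WT in the labels, no strain given) at embryonic days E13.5, E14.5, E15.5 and E16.5 and at birth (P0), with no treatment in any group. A stage was covered by 3 libraries. For every library the palates of 3 animals, called embryos in the labels, had been pooled, so the spread given is between pools, not between animals. A palate in this sense holds oral and nasal epithelium, mesenchyme and the bone, muscle and vessels that form in it.

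R-spondins are secreted proteins that make cells more sensitive to Wnt ligands. Znrf3 and Rnf43 normally tag Frizzled receptors for removal from the cell surface. An R-spondin bound to both an Lgr receptor and one of these ligases takes the ligase out of the membrane, so that Frizzled receptors accumulate and the canonical Wnt signal through β-catenin grows. Lgr5 is best known as a marker of stem cells in gut and hair follicle, and loss of Rspo2 in mice gives defects of the face, limbs and lungs that include a cleft palate.

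In the palate, 4 of the 9 genes differed between stages. Lgr6 was 6.29-fold higher at P0 than at E13.5, and Lgr5, Rspo2 and Rspo3 were 3.14-fold, 3.37-fold and 3.16-fold lower. Lgr4 was the most abundant of the receptors per length in every library, and neither ligase gave a detectable difference between any stages compared. In the test of any difference among the 5 stages (edgeR quasi-likelihood F test, p-values adjusted by Benjamini-Hochberg over 22151 genes), 4 of 9 members passed a threshold of 0.05, while 59.1% of all tested genes did. The share of members that passed is thus not above that of the table as a whole.

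The genes lie on chromosomes 1, 2, 4, 10, 11 and 15 of the mouse genome (GRCm38). Of the ligands, Rspo1 (ENSMUSG00000028871.7) spans bases 124986430 to 125009099 of chromosome 4 on the plus strand, and Rspo2 (ENSMUSG00000051920.7) spans 43020794 to 43170826 of chromosome 15 on the minus strand. Rspo3 (ENSMUSG00000019880.10) spans 29452416 to 29535867 of chromosome 10, minus strand, and Rspo4 (ENSMUSG00000032852.3) spans 151842927 to 151874668 of chromosome 2, plus strand. Of the receptors, Lgr4 (ENSMUSG00000050199.13) spans 109917647 to 110014257 of chromosome 2, plus strand. Lgr5 (ENSMUSG00000020140.15) spans 115450311 to 115587780 of chromosome 10, minus strand, and Lgr6 (ENSMUSG00000042793.13) spans 134983301 to 135105276 of chromosome 1, minus strand. Both ligase genes are on chromosome 11, where Znrf3 (ENSMUSG00000041961.14) spans 5276324 to 5444847 on the minus strand and Rnf43 (ENSMUSG00000034177.15) spans 87662722 to 87735539 on the plus strand. Counting used the strand of the read, and the annotated genes that overlap a member on either strand held at most 23 counts in any library.

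The 250 bases before the start of Lgr4, the receptor with the highest level, and of Lgr6, the receptor that rose, are printed as those of the receptor genes with an entry. Both come from RefSeq on GRCm38.p6, where the starts of these genes coincide with those in the deposited table. Capitals mark CCAAT, a common promoter motif, read on both strands.
Lgr4 (chr2:109917397-109917646, plus strand): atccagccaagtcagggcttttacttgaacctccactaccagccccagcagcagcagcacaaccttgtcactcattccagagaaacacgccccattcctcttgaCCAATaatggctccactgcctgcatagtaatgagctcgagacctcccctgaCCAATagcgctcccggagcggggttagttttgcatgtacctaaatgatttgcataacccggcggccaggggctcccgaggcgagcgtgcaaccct
Lgr6 (chr1:135105277-135105526, minus strand): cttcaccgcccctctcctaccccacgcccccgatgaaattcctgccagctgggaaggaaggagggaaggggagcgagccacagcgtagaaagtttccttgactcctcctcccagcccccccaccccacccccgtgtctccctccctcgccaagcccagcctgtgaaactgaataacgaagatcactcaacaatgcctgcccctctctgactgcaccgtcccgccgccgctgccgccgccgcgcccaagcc

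The Lgr4 window holds 2 copies of CCAAT, which start 146 and 95 bases before the gene's first base, and the Lgr6 window holds none. Among 32851 RefSeq windows of the same length, 33.8% hold at least 1 copy and 10.1% hold 2 or more. The windows of Rspo1, Rspo4 and Rnf43 hold no CCAAT either. The 2 RefSeq starts of Rnf43 lie 365 and 37175 bases from the start of the deposited gene. Its windows are thus not the bases just before the counted gene. A search of all these windows for forms of the site bound by TCF and LEF factors on both strands (the letters CTTTGAA, the variant CTTTGAT, the variant CTTTGTA or the variant CTTTGTT) found none in any of the 5 members with an entry, and 14.8% of all windows hold one. Rspo2, Rspo3, Lgr5 and Znrf3 have no entry.

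Total counts per library ran from 21470759 to 69019565 (median 61027072), and all R-spondin, receptor and ligase genes other than Rspo4 held at least 148 counts in every library. Libraries of E13.5 to E15.5 held at least 58245101 counts and those of E16.5 and P0 at most 52258321, so depth differed with stage. The palate mesenchyme factors Osr2, Pax9 and Msx1 were present in every library, at 16.9 to 73.0, 23.8 to 94.2 and 4.13 to 111 CPM (counts per 1000000 counts of the TMM-scaled library). Several libraries stood apart by other tissues. Ttr, made by choroid plexus, reached 1220 and 673 CPM in E14.5 replicates 1 and 3 and 362 CPM in P0 replicate 2, against 98.4 CPM or less elsewhere. Hoxa5 stood at 102, 18.9 and 1.29 CPM in E14.5 replicates 1 to 3, against 4.83 CPM or less at the other stages. E14.5 replicate 2, the library of its stage that stays when the Ttr libraries are left out, thus also stood apart. Ambn, an enamel matrix gene, stood at 6.97, 4.18 and 7.23 CPM in replicate 3 of E15.5, E16.5 and P0, against 3.08 CPM or less elsewhere. Enam, another enamel gene, was also highest in replicate 3 of these stages, whereas Amelx and Dspp were lowest there. Summed levels of 10 epithelial markers (among them Krt5, Krt14, Epcam and Cdh1) went from 300 to 667 CPM at E13.5 up to 1070 to 2880 CPM at P0, and replicate 3 was the highest library of every stage. Ddx3y, a gene of the Y chromosome, stood at 0.0277 to 0.0647 CPM at E16.5 and at 25.4 to 53.1 CPM at E14.5. At E13.5, E15.5 and P0 it ranged from 0.201 to 54.5, from 0.152 to 46.2 and from 0.152 to 36.0 CPM. The sex makeup of the pools thus differed between stages, and its part in the results was not tested. Fold changes without the Ttr or Ambn libraries are given for Rspo4, Lgr6 and the Lgr5 step from E13.5 to E14.5. Counts of genes without them are given at the end.

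**Figure D1:**
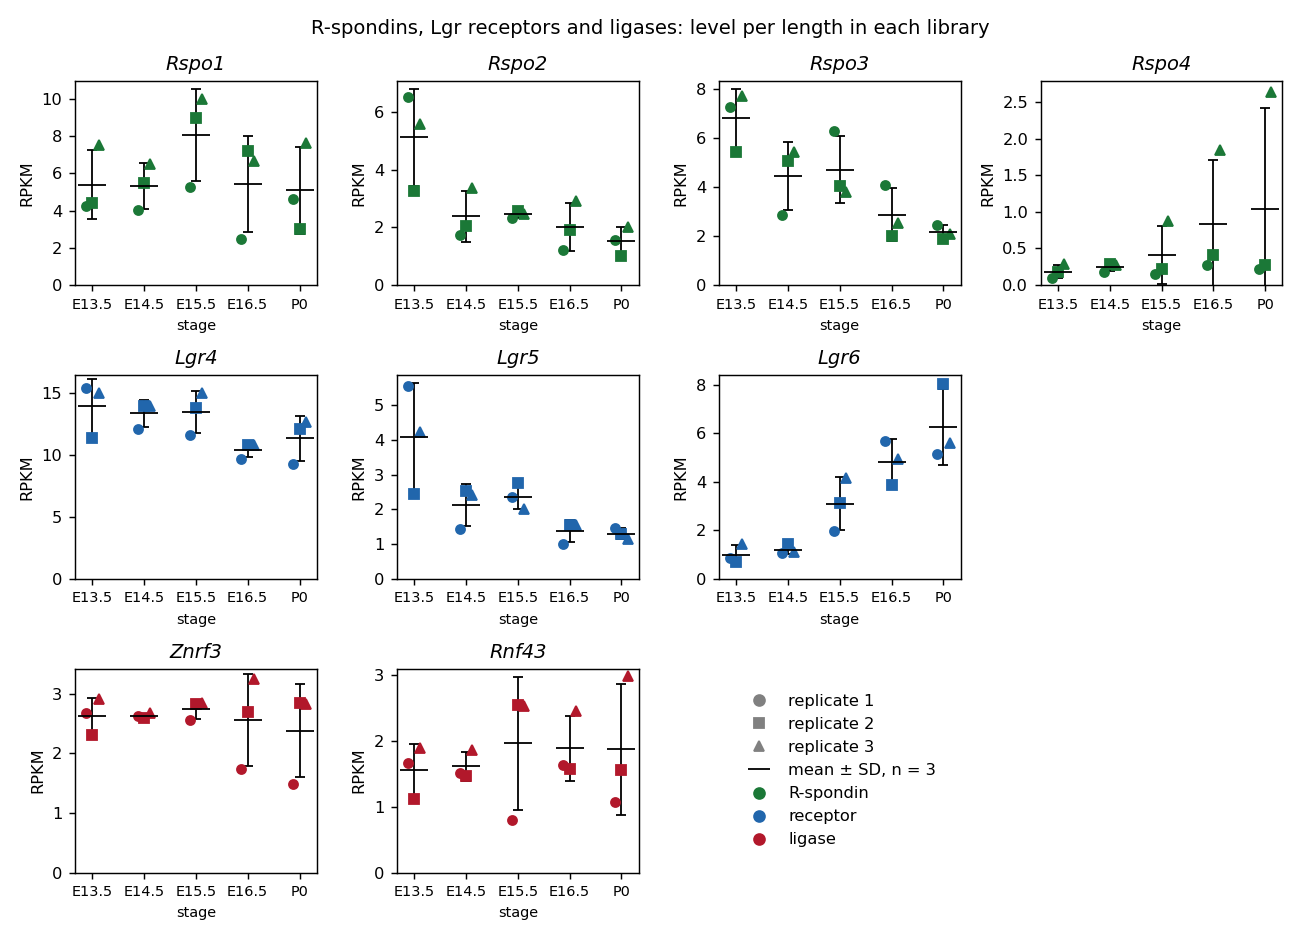
Level per length (RPKM, linear axes from 0) of the 9 genes in each of 15 libraries by stage, with symbols for replicates 1 to 3 and the mean ± SD of 3 libraries in black. Lgr6 climbs from 0.997 RPKM on average at E13.5 to 6.27 at P0 while Lgr5, Rspo2 and Rspo3 are lower at P0 than in any E13.5 library, and Rspo4 is high only in replicate 3 of the last 3 stages.

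Among the ligands, Rspo2 was highest at E13.5, with 33.3, 16.7 and 28.5 CPM in replicates 1 to 3. It stood at 8.80, 10.4 and 17.2 CPM at E14.5, at 11.8, 13.1 and 12.6 CPM at E15.5, at 6.26, 9.82 and 14.8 CPM at E16.5 and at 7.90, 5.12 and 10.3 CPM at P0. All 3 P0 libraries lay below all 3 E13.5 libraries, while E13.5 replicate 2 lay below E14.5 replicate 3. From E13.5 to P0, Rspo2 fell by 1.75 on the log2 scale (SE 0.37, 95% interval -2.56 to -0.94, edgeR adjusted p = 0.00168, n = 3 and 3). The difference of -1.11 (SE 0.37) between E14.5 and E13.5, the largest between neighbouring stages, did not pass (edgeR adjusted p = 0.199). The adjusted p over all stages, 0.00813, became 0.0504 without E13.5 replicate 1. In bulk tissue, fewer cells of a type and less RNA per cell cannot be told apart, here or in any result that follows.

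Rspo3, which is known for its part in vessel and placenta development, had its highest mean at E13.5 and its lowest at P0. It stood at 22.4, 16.7 and 23.8 CPM at E13.5, at 8.86, 15.6 and 16.7 CPM at E14.5, at 19.4, 12.5 and 11.7 CPM at E15.5, at 12.5, 6.20 and 7.83 CPM at E16.5 and at 7.57, 5.85 and 6.44 CPM at P0. The P0 libraries were all below the E13.5 libraries, and no pair of neighbouring stages was free of overlap. Rspo3 fell by 1.66 on the log2 scale from E13.5 to P0 (SE 0.31, 95% interval -2.34 to -0.98, edgeR adjusted p = 0.000768). Between E15.5 and E16.5 the difference was -0.71 (SE 0.31) and did not pass (edgeR adjusted p = 0.201).

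Rspo1, the R-spondin best known from ovary development, had no detectable difference between stages (edgeR adjusted p = 0.551 over all stages). Its means were 10.5 ± 3.62, 10.4 ± 2.40, 15.6 ± 4.84, 10.5 ± 5.03 and 9.86 ± 4.54 CPM from E13.5 to P0 (SD, n = 3 each). The 95% interval of the difference between P0 and E13.5, -1.03 to 0.85 on the log2 scale, leaves room for a change in either direction. Libraries of a single stage differed widely, as at E16.5, where Rspo1 stood at 4.77, 14 and 12.9 CPM.

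Rspo4, the R-spondin needed for nail formation, was the least abundant member, with 16 to 178 counts per library. It stood at 0.229, 0.409 and 0.668 CPM at E13.5 and at 0.421, 0.681 and 0.646 CPM at E14.5. At E15.5 the libraries gave 0.354, 0.522 and 2.07 CPM, at E16.5 0.647, 0.968 and 4.36 CPM, and at P0 0.527, 0.640 and 6.27 CPM. The high library at each of the last 3 stages was replicate 3, and the other 6 libraries of those stages were at 0.968 CPM or less. These are the 3 libraries with Ambn above 4 CPM and the highest epithelial marker sums of their stages (1840, 2050 and 2880 CPM). Not all markers were highest there: Amelx was lowest in them, at 0.0723, 0.343 and 0.697 CPM, and Epcam was highest in E15.5 replicate 2 and E16.5 replicate 1. The summed level of 5 enamel and dentine markers (Ambn, Amelx, Enam, Amtn and Dspp) was 0.676 to 1.84 CPM at E13.5 and 3.72 to 8.80 CPM at P0, with Dspp at or under 0.277 CPM in every library. Between P0 and E13.5, Rspo4 differed by 2.48 on the log2 scale (SE 1.03, 95% interval 0.24 to 4.72) and did not pass (edgeR adjusted p = 0.0561). The difference was 0.45 without P0 replicate 3 (edgeR adjusted p = 0.694) and 0.42 without the 3 high libraries (edgeR adjusted p = 0.454), and it passed without P0 replicate 1 (3.00, edgeR adjusted p = 0.0305) or P0 replicate 2 (2.97, edgeR adjusted p = 0.0353). It also passed with DESeq2 (2.52, adjusted p = 0.0158), with a filter at a mean of 1 CPM (2.58, edgeR adjusted p = 0.0495) and with a replicate block (1.86, edgeR adjusted p = 0.0159).

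Of the receptors, Lgr6 gave the largest difference. Lgr6 marks stem cells of the hair follicle and is also found in other epithelia. It stood at 5.88, 4.69 and 9.92 CPM at E13.5, at 7.26, 9.79 and 7.67 CPM at E14.5, at 13.6, 21.6 and 28.5 CPM at E15.5, at 39.1, 26.4 and 33.8 CPM at E16.5 and at 35.4, 55.1 and 38.3 CPM at P0. The order of the stage means followed age, and every library from E15.5 on was above every library of E13.5 and E14.5. From E13.5 to P0 it rose by 2.65 on the log2 scale (SE 0.33, 95% interval 1.93 to 3.37, edgeR adjusted p = 4.33e-05). This rise also passed without the Ttr libraries (2.41, edgeR adjusted p = 0.000766) and without the Ambn libraries (2.73, edgeR adjusted p = 0.00025).

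Between neighbouring stages, Lgr6 was the only member to pass in edgeR, and only from E14.5 to E15.5, where it rose 2.58-fold (1.37 on the log2 scale, SE 0.32, edgeR adjusted p = 0.00954). All 3 E15.5 libraries were above all 3 E14.5 libraries. In this comparison 1 of 9 members passed against 26.1% of all tested genes (12.7% higher), and 24% of tested genes had every E15.5 library above every E14.5 library. The step rests on few libraries. It was 1.27 without E14.5 replicate 1 (edgeR adjusted p = 0.0508), 1.10 without the Ttr libraries, which leaves 1 library at E14.5 that is assumed to vary like the others (edgeR adjusted p = 0.216), and 1.14 without the Ambn libraries (edgeR adjusted p = 0.0615). The steps of Lgr6 from E13.5 to E14.5, from E15.5 to E16.5 and from E16.5 to P0 did not pass.

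Lgr5 took the opposite course. It stood at 57.1, 25.1 and 43.3 CPM at E13.5, at 14.6, 25.8 and 24.7 CPM at E14.5, at 24.0, 28.2 and 20.6 CPM at E15.5, at 10.3, 15.9 and 15.8 CPM at E16.5 and at 15.1, 13.2 and 11.7 CPM at P0. All libraries of E16.5 and P0 lay below all libraries of E13.5 and E15.5. Lgr5 fell by 1.65 on the log2 scale from E13.5 to P0 (SE 0.30, 95% interval -2.31 to -0.99, edgeR adjusted p = 0.000623). The differences of -0.95 (SE 0.30) from E13.5 to E14.5 and of -0.80 (SE 0.30) from E15.5 to E16.5 did not pass (edgeR adjusted p = 0.186 and 0.151). With DESeq2 the first of these had an adjusted p of 0.0465. In edgeR the same difference was -0.72 without E14.5 replicate 1 (edgeR adjusted p = 0.648). Without the Ttr libraries, which leaves 1 library at E14.5, it was -0.69.

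Lgr4, the receptor found in most tissues, had means of 81.9 ± 13, 78.6 ± 6.45, 79.3 ± 10, 61.4 ± 3.76 and 66.8 ± 10.6 CPM from E13.5 to P0 (SD, n = 3 each). The 3 E16.5 libraries, at 57.1, 63.7 and 63.5 CPM, were all below the E15.5 libraries, at 68.5, 81.2 and 88.3 CPM. That difference of -0.37 (SE 0.15) did not pass (edgeR adjusted p = 0.182), nor did the test over all stages (edgeR adjusted p = 0.10). Without E13.5 replicate 2, the lowest library of its stage, the latter p was 0.0393.

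The ligases showed no detectable difference between stages. Znrf3, a regulator of Wnt signalling that is itself a Wnt target, had means of 20.8 ± 2.38, 20.7 ± 0.349, 21.6 ± 1.24, 20.2 ± 6.10 and 18.8 ± 6.10 CPM (edgeR adjusted p = 0.950 over all stages). The 95% interval for P0 against E13.5 was -0.68 to 0.39 on the log2 scale. E16.5 replicate 1 and P0 replicate 1, at 13.6 and 11.8 CPM, were the low libraries, and the other 13 lay between 18.3 and 25.7 CPM.

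Rnf43, its close relative, stood at 10.9, 7.27 and 12.3 CPM at E13.5, at 9.92, 9.58 and 12.2 CPM at E14.5, at 5.24, 16.7 and 16.6 CPM at E15.5, at 10.7, 10.3 and 16.1 CPM at E16.5 and at 7.02, 10.2 and 19.5 CPM at P0. The stage ranges all overlapped, and the spread within E15.5 and within P0 exceeded the spread between stage means (edgeR adjusted p = 0.916 over all stages). The 95% interval for P0 against E13.5 was -0.67 to 1.21.

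**Figure D2:**
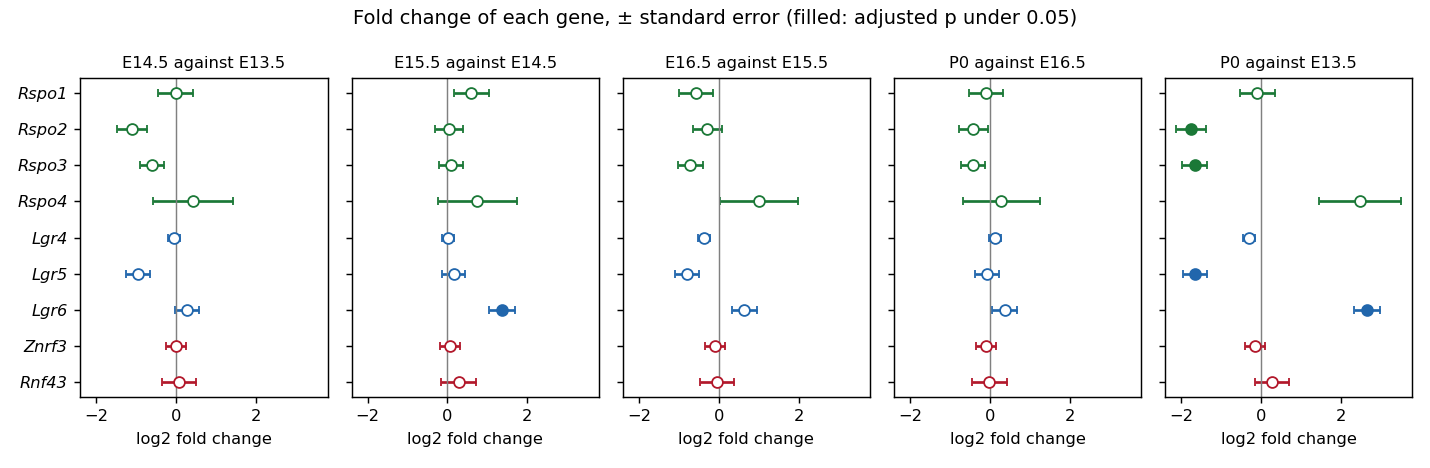
Log2 fold change ± standard error of each gene in the 5 comparisons of stages, with filled points where the edgeR adjusted p was under 0.05. Filled points are Lgr6 at E15.5 against E14.5 (1.37) and, at P0 against E13.5, Lgr6 (2.65), Lgr5 (-1.65), Rspo2 (-1.75) and Rspo3 (-1.66).

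Over the whole interval from E13.5 to P0, 4 of 9 members passed (1 higher and 3 lower), against 56.6% of all tested genes (29.8% higher and 26.8% lower). The libraries of these stages did not overlap for the same 4 members, as they did not for 30.2% of tested genes in the upward and 28.9% in the downward direction. The median log2 fold change of the 9 members was -0.14, and that of all tested genes was 0.03. From E13.5 to E14.5, when the palatal shelves lift and meet, no member passed in edgeR, and 0.00903% of tested genes did. Of the members, 2 had an unadjusted p under 0.05 (Rspo2 and Lgr5), as did 16% of tested genes. Lgr5 passed with DESeq2, which called 1000 of the 22151 tested genes in this comparison. From E15.5 to E16.5 no member passed, against 1.41% of all tested genes, and 3 (Rspo3, Lgr4 and Lgr5) had an unadjusted p under 0.05, as did 21.8% of tested genes. Every library of E16.5 lay below every library of E15.5 for 2 of the 9, against 15.5% of tested genes. From E16.5 to P0 no member passed or had an unadjusted p under 0.05, while 0.352% of tested genes passed and 11.7% had such a p.

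Compared per length (RPKM, which is CPM divided by the merged exon length in kilobases), Lgr4 was the highest of the 9 genes in every library, between 9.30 and 15.4 RPKM. Its share of the summed receptor level was 73.9% ± 4.09 at E13.5 and 60.0% ± 4.73 at P0 (SD, n = 3). The other receptors exchanged rank. At E13.5, Lgr5 held 20.9% ± 4.35 and Lgr6 5.22% ± 1.60 of the sum, and at P0 Lgr5 held 7.02% ± 1.90 and Lgr6 32.9% ± 4.45. The ratio of Lgr5 to Lgr6 was 6.49, 3.57 and 2.91 in the E13.5 libraries, 1.34, 1.76 and 2.15 at E14.5, 1.18, 0.874 and 0.482 at E15.5, 0.175, 0.401 and 0.313 at E16.5 and 0.284, 0.159 and 0.204 at P0. The order thus crossed within the E15.5 libraries. The summed receptor level was 19 ± 3.93 RPKM at E13.5 and 18.9 ± 2.76 RPKM at P0.

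Among the ligands, Rspo3 held the largest mean share at E13.5 (39.1% ± 2.31 of the summed R-spondin level), followed by Rspo1 (30.9% ± 6.54) and Rspo2 (29.0% ± 6.10), and the ranges of Rspo1 and Rspo2 overlapped. At P0 Rspo1 held 51.3% ± 2.44, Rspo3 24.3% ± 8.62, Rspo2 15.9% ± 1.75 and Rspo4 8.44% ± 8.70, the last ranging from 2.51% to 18.4% between libraries. The order depends on division by length. Without it, Rspo2 held 44.5%, Rspo3 36.5% and Rspo1 18.2% at E13.5, and at P0 Rspo1 held 36.1%, Rspo2 29.4% and Rspo3 27.0%. The summed R-spondin level was 17.5 ± 3.96 RPKM at E13.5 and 9.79 ± 4.18 RPKM at P0. Of the ligases, Znrf3 was above Rnf43 per length in 14 of 15 libraries, the exception being P0 replicate 3 with a ratio of 0.947, and it held 63.4% ± 3.71 of their sum at E13.5 and 57.1% ± 7.99 at P0. These are levels of RNA, described without a test.

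**Figure D3:**
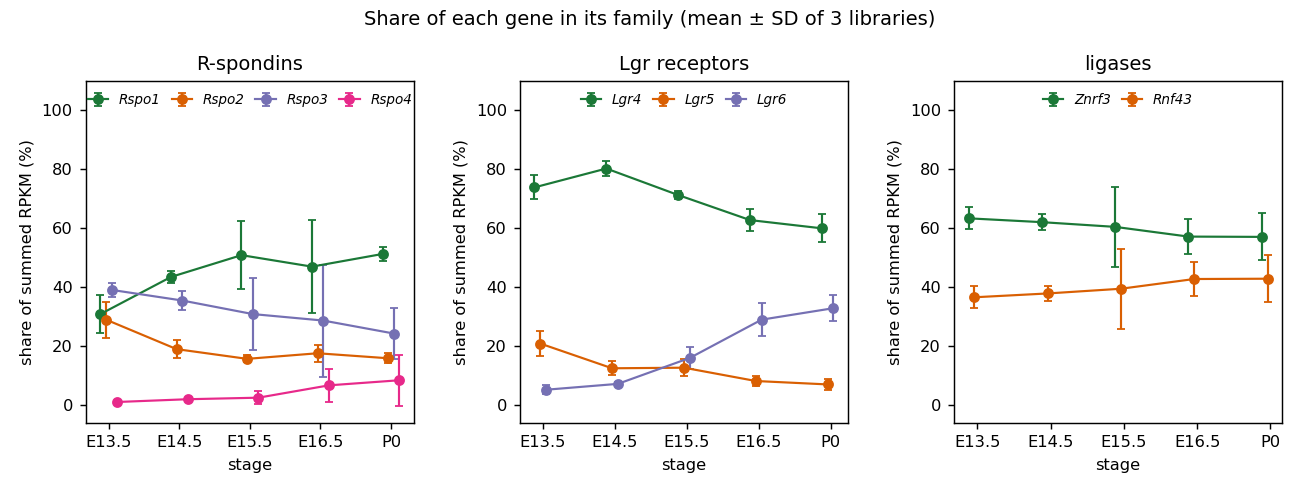
Share of each gene in the summed RPKM of its family (%, linear axis) by stage, as the mean ± SD of 3 libraries. Among receptors the Lgr6 share goes from 5.22% to 32.9% and that of Lgr5 from 20.9% to 7.02%, with the mean lines crossing between E14.5 and E15.5, and among R-spondins Rspo1 goes from 30.9% to 51.3%.

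Several members moved with the makeup of the libraries. Correlations are Pearson's r of log2 CPM over the 15 libraries, which share stages and in part the libraries that stood apart, and the value within stages uses deviations from stage means. Rnf43 followed the sum of the 10 epithelial markers at r = 0.65, and at 0.94 within stages. Rspo4 gave 0.79 and 0.79, and Lgr6 gave 0.90 and 0.67. Lgr4 gave -0.17 over all libraries and 0.81 within stages. Rspo1 gave 0.30 and Znrf3 0.18 over all libraries, and each gave 0.67 within stages. Rspo2, Lgr5 and Rspo3 gave -0.42, -0.57 and -0.72, and within stages 0.47, 0.14 and -0.3. All 10 epithelial markers were at 1 CPM or more on average at every stage. Krt5 and Krt14 gave a large part of the sum, and single markers did not all follow it, as Epcam stood at 113, 58.8 and 70.4 CPM in E16.5 replicates 1 to 3, where the sum was 1030, 1240 and 2050 CPM. Lgr6 also had r = 0.91 with the sum of 8 osteoblast markers and 0.90 with that of 7 muscle markers, which within stages were 0.15 and 0.06. With the sums of nasal epithelium, tooth and endothelial markers it had 0.91, 0.82 and 0.79, and within stages 0.42, 0.33 and 0.38. With the tooth sum, Rspo4 gave 0.71 and Rnf43 0.44, and within stages 0.78 and 0.63. With the nasal epithelium sum they gave 0.5 and 0.32, and within stages 0.22 and 0.61. The osteoblast sum was 1290 to 1970 CPM at E13.5 and 16300 to 31300 CPM at P0, and the muscle sum was 198 to 367 and 5140 to 32100 CPM. The part of epithelium, bone, muscle, tooth and vessels in the Lgr6 rise was not tested.

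Rspo2, Rspo3 and Lgr5 followed the sum of 8 mesenchyme markers at r = 0.56, 0.52 and 0.56, and at 0.65, 0.63 and 0.58 within stages. That sum was 932 to 1540 CPM at E13.5 and 977 to 1100 CPM at P0, but it joins markers that went in opposite directions. Prrx1 (289 to 453 CPM at E13.5 and 93.9 to 139 CPM at P0), Pdgfra (227 to 425 and 162 to 181 CPM), Twist1 and Osr2 were lower at P0 without overlap, as were Rspo2, Rspo3 and Lgr5. Dcn (60.2 to 117 and 307 to 353 CPM) and Lum (105 to 176 and 261 to 331 CPM) were higher without overlap, and Msx1 and Pax9 overlapped. The part of these cells in the falls of Rspo2, Rspo3 and Lgr5 was not tested. E14.5 replicate 1, with the lowest mesenchyme sum (592 CPM) and the highest sum of 13 brain and choroid plexus markers (3070 CPM), was also the lowest E14.5 library for Rspo2, Rspo3 and Lgr5. With the sum of 5 cartilage markers, Rspo3 gave r = 0.78, Lgr5 0.69 and Rspo2 0.57, and within stages 0.71, 0.49 and 0.23. The cartilage sum was 1070 to 2850 CPM at E13.5 and 373 to 1150 CPM at P0, and its part in these falls was not tested. Within stages, Rspo3 also gave 0.73 with the sum of 5 endothelial markers, against -0.35 over all libraries. The osteoblast sum gave 0.51, 0.59 and 0.48 within stages for Rspo2, Rspo3 and Lgr5, against -0.54, -0.6 and -0.58 over all libraries. With the tooth sum the same genes gave 0.7, -0.1 and 0.19 within stages. The values within stages thus do not single out mesenchyme.

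**Figure D4:**
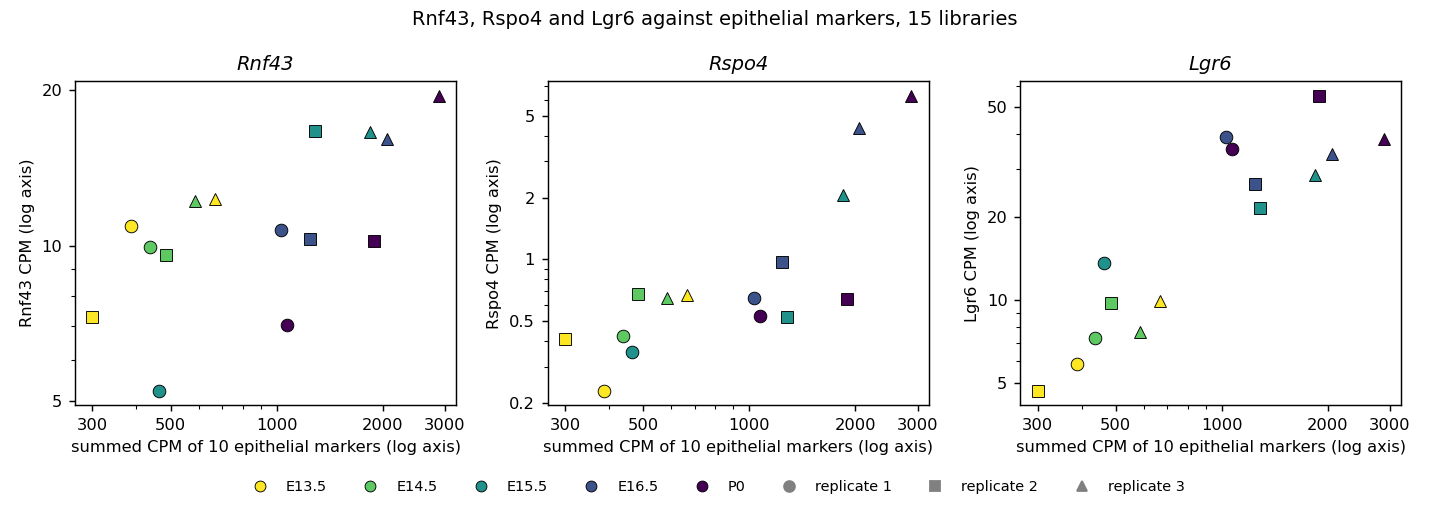
CPM of Rnf43, Rspo4 and Lgr6 (log axes) against the summed CPM of 10 epithelial markers (log axis) in 15 libraries, coloured by stage with symbols for replicates. Replicate 3 has the highest epithelial sum of each stage, Rspo4 is above 2 CPM only in 3 of those libraries, and Lgr6 separates the E13.5 and E14.5 libraries (9.92 CPM or less) from the later ones (13.6 CPM or more).

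Between the members themselves, Lgr5 had r = 0.88 with Rspo2 and 0.81 with Rspo3 over the 15 libraries, and 0.66 and 0.29 within stages. Lgr5 and Lgr6 gave -0.70, and 0.11 within stages. Rspo4 and Rnf43 gave 0.69, and 0.72 within stages. The genes most like each member among 13530 tested genes with a mean of at least 5 CPM were, for Rspo2, Flna (r = 0.968), Notch2 (0.933) and Ror2 (0.933), which encode a filamin, a Notch receptor and a receptor for Wnt5a. For Lgr5 they were Gab1 (0.950), the mesenchymal growth factor receptor Pdgfra (0.944) and Top3a (0.938), and for Rspo3 the chemokine Cxcl12 (0.940), Arhgef40 (0.929) and Gas2 (0.920). For Lgr6 they were the keratin Krt80 (0.988), Stmnd1 (0.985) and Ptk2b (0.985). For Rspo4 they were Vwde (0.921), the tooth and skin transcription factor Sp6 (0.913) and Large2 (0.911), and for Rnf43 the epithelial clathrin adaptor Ap1m2 (0.947), Rtp2 (0.914) and Bnipl (0.910). Lgr4 was most like Ptbp3 (0.936), Rnf170 (0.933) and Frk (0.924), Znrf3 most like Arl13b (0.921), Ern1 (0.903) and Oxr1 (0.860), and Rspo1 most like Nrgn (0.861), Cntn4 (0.811) and Cpne8 (0.803). By Spearman correlation the same 3 genes came first only for Lgr4, and for Rspo1, Rspo3, Lgr5, Lgr6 and Znrf3 none of the 3 did.

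The wider pathway was described through 4 lists, whose counts stand beside the shares of all tested genes that rose (29.8%) and fell (26.8%) from E13.5 to P0. Of 14 genes that respond to or feed back on canonical Wnt signalling, 3 rose and 7 fell from E13.5 to P0 (median log2 fold change -0.67, against 0.03 for all tested genes). Axin2, the usual readout of the canonical pathway, fell by 1.00 on the log2 scale (SE 0.25, edgeR adjusted p = 0.00491), from 66.3 ± 14.1 CPM at E13.5 and 61.6 ± 7.76 at E14.5 to 39.9 ± 9.19, 35.3 ± 7.39 and 33.2 ± 10.6 CPM at the later stages. No neighbouring stages differed past the threshold for Axin2, although every E15.5 library was below every E14.5 library (edgeR adjusted p = 0.0821). Sox9, also the main cartilage factor, fell by 2.53 (SE 0.40, edgeR adjusted p = 0.000225) and the transcription factor Lef1 by 2.03 (SE 0.46, edgeR adjusted p = 0.00259). The secreted Wnt inhibitors Wif1 and Notum rose by 2.84 (SE 0.57, edgeR adjusted p = 0.00114) and 2.35 (SE 0.40, edgeR adjusted p = 0.000381).

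Of 12 Wnt receptor genes, none rose and 7 fell from E13.5 to P0 (median -0.68), where 56.6% of all tested genes passed. The largest falls were those of Fzd3, from 129 ± 47.2 to 33.6 ± 14.4 CPM, and Fzd2, from 190 ± 34.5 to 57.2 ± 19.3 CPM (edgeR adjusted p = 0.00116 and 0.000123). Of 19 Wnt ligands 18 were tested, and 3 rose and 3 fell (median 0.18), against 56.6% of the table passing. Wnt10a went from 1.59 ± 1.05 to 8.02 ± 3.16 CPM and Wnt4 from 28.2 ± 9.91 to 90.8 ± 21.8 CPM (edgeR adjusted p = 0.0023 and 0.00204), while Wnt9b and Wnt3, whose loci are linked to clefting, went from 2.94 ± 1.80 to 0.514 ± 0.387 CPM and from 5.28 ± 2.02 to 1.43 ± 0.873 CPM (edgeR adjusted p = 0.00571 and 0.00221).

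The 18 genes of the fourth list encode mostly surface proteoglycans and other binding partners or effectors of R-spondins, Lgr receptors and the ligases. Tnfrsf11a is listed as the receptor of the Lgr4 partner Tnfsf11 and is not itself such a partner. Of the 18, 5 rose and 7 fell from E13.5 to P0 (median 0.19), a share near the 56.6% of all tested genes. Tnfsf11, the osteoclast factor RANKL, which can also bind Lgr4, rose by 3.66 on the log2 scale (SE 0.39, edgeR adjusted p = 1.5e-05), and its receptor Tnfrsf11a by 2.37 (SE 0.24, edgeR adjusted p = 1.17e-05). The glypicans Gpc2 and Gpc6, which are heparan sulphate proteoglycans, fell by 3.58 (SE 0.53, edgeR adjusted p = 0.000146) and 1.66 (SE 0.31, edgeR adjusted p = 0.000664).

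From E14.5 to E15.5 none of the ligands rose and 4 fell, 2 receptors rose and 2 fell, 3 response genes rose and 1 fell, and 5 partners rose and 4 fell, while 26.1% of all tested genes passed (12.7% higher and 13.4% lower). These counts cannot be checked without the 3 Ttr libraries, as that fit leaves 1 library at E14.5. In the other comparisons of neighbouring stages no gene of the 4 lists passed in edgeR. At an unadjusted p under 0.05 the response list held 1 gene from E13.5 to E14.5 and none later, the ligand list 1 from E15.5 to E16.5 and none in the others, the receptor list 3, 2 and 2 and the partner list 3, 5 and 3 in the 3 comparisons in order of age. DESeq2 called 1, 2 and 1 partners there. Over the whole table, 16%, 21.8% and 11.7% of tested genes had such an unadjusted p. DESeq2 called 1000, 2094 and 663 of the 22151 tested genes in these comparisons.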

How the data were processed

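The authors deposited a table of counts per gene, made per the file headers with featureCounts 2.0.1 on read pairs, by strand, against GENCODE M18, together with the exon length of each gene in bases, a column of another kind that was used for RPKM. The submitters' processing notes name cutadapt 3.4, HISAT2 2.2.1, Bowtie2, SAMtools 1.12 and mm10. Symbols came from GENCODE M21 (54079 of 54232 identifiers).

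Genes were filtered with filterByExpr (minimum count 10, 22151 kept), scaled by TMM and tested in one edgeR model of stage for the 15 libraries (edgeR 4.0.16 under R 4.3.3, quasi-likelihood F tests, Benjamini-Hochberg adjustment, threshold 0.05, common biological coefficient of variation 0.332). The standard error is the absolute log2 fold change divided by the root of F. Log2 CPM used a prior count of 2. The members and lists were chosen with earlier results of these data known. All members were named, with fold changes where the unadjusted p was under 0.05 (11 of 45), and from each list the 2 largest rises and falls past the threshold with at least 1 CPM, plus Axin2 and the 3 genes most correlated with each member. The labels do not say whether the pools of a stage came from separate litters, and p-values measure only the spread between pools.

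On simulated counts for E15.5 against E14.5, a true change of 2-fold was detected in 26.9% of 67 genes, one of 4-fold in 65.7% of 67 and one of 8-fold in 87.9% of 66, with 0.0273% of 21951 unchanged genes called. Far fewer genes were changed there than passed in the data (26.1%). The adjustment of p-values depends on that share, so these rates need not be those of the real comparison. A level of 3 counts is 0.0435 to 0.1397 CPM. Libraries of a stage differed beyond counting error (chi-square per degree of freedom 32.6 to 246). Alternatives were DESeq2 1.42.0, other scalings and filters, a replicate block and left-out libraries, and those without the Ttr or Ambn libraries were chosen after seeing the data.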

Additional observations from a re-analysis of the deposited data

How the results depend on the processing

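The number of members past the threshold was as reported, within 1.5 times, in 92 of 96 alternative fits. With DESeq2 it was 1 rather than 0 for E14.5 against E13.5. For E15.5 against E14.5 it was 0 rather than 1 without the Ttr libraries, 0 without the Ambn libraries and 0 without E14.5 replicate 1. Leaving out 1 library at a time gave 3 to 5 members over all stages, 0 to 1 for E15.5 against E14.5, 4 to 5 for P0 against E13.5 and 0 in the other comparisons. Replicate numbers gave no general pairing of the samples. Same-numbered pairs correlated at -0.303 to 0.548 (median -0.002, 9 of 30 over 0.1). For pairs of different number the median was -0.022, with 19 of 60 over 0.1. Between replicate 3 libraries alone, r ran from -0.102 (E14.5 and E16.5) to 0.548 (E13.5 and E14.5), with 0.482 for E15.5 and P0. Whether libraries of one number share a factor was not tested. With a replicate block the members past the threshold numbered 5 for P0 against E13.5, where Rspo4 had 1.86 (adjusted p = 0.0159), and the block gave 7 in place of 4 ligands for E15.5 against E14.5 and 1 in place of 0 partners for E16.5 against E15.5. Of the 34 differences of members given without a fold change, 19 changed sign in some alternative and 1 passed, that of Lgr4 for P0 against E13.5 without E13.5 replicate 2. Under upper-quartile scaling the log2 fold changes of E15.5 against E14.5 had a median of 0.16 over the table in place of 0.03, with 3424 higher and 2007 lower genes in place of 2803 and 2970, and Lgr6 had 1.50. For P0 against E16.5 it gave 36 and 17 in place of 42 and 36.

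Counts over the whole table varied most where few genes passed. For E14.5 against E13.5 (2 genes) they were 1000 with DESeq2, 6 without a filter, 1 at 1 CPM, 135 with the block, 0 without the Ttr libraries, 0 with only the 6 libraries compared and 0 to 28 with 1 library of the stages compared left out. For E15.5 against E14.5 (5773) they were 812 without the Ttr libraries, 2859 without the Ambn libraries and 2320 to 5816 with 1 left out. For E16.5 against E15.5 (312) they were 2094 with DESeq2, 0 with 6 libraries, 0 without the Ttr libraries, which are of other stages, 93 without the Ambn libraries and 0 to 504. For P0 against E16.5 (78) they were 663 with DESeq2, 25 without a filter, 35 with the block, 0 with 6 libraries, 2 and 3 without the Ttr and Ambn libraries, and 10 to 216. In the lists, 4 in place of 8 ligands and 6 in place of 10 response genes passed over all stages without the Ttr libraries, and without the Ambn libraries 2 receptors, 2 response genes and 3 partners passed for E15.5 against E14.5. Without division by length, 25 family shares moved by more than their SD, and Lgr5 held 31.2% of the receptor sum at E13.5. Rspo4, at 16 to 178 counts, is the member limited most by depth.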
